A study of Mus musculus with 2 samples.

Results

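Macrophages that carry transcripts of Gpnmb, a transmembrane glycoprotein of lysosomes and phagosomes, together with the C1q genes, the recognition subunits of the classical complement pathway, and little class II were examined in pancreatic tumours of KPPC mice. A cell was a member when it held at least 2 UMIs of Gpnmb, at least 10 UMIs of C1qa, C1qb and C1qc together, and under 1.5% of its UMIs in H2-Aa, H2-Ab1, H2-Eb1 and Cd74, the genes of antigen presentation by MHC class II. A UMI is a unique molecular identifier and stands for 1 captured transcript. Cells with more than 1 UMI of the alveolar macrophage genes Ear2 and Car4, with 1% or more of their UMIs in the acute-phase gene Saa3, or with any UMI of Cd79a, Cd3e or Epcam were left out. Cells were kept from 1000 UMIs and 500 genes up, with mitochondrial genes taking no more than 20% of the UMIs. Of 36662 kept cells, 578 were members: 49 of 9872 in the vehicle library and 529 of 26790 in the takinib library. The choice rests on measured counts, so the levels of the 14 genes it used are given as a description.

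KPPC mice are a genetically engineered model that develops pancreatic ductal cancer, and the labels give no further alleles or strain. Per the labels, mice aged 6 weeks received vehicle or 50 mg/kg takinib, an inhibitor of the kinase TAK1 (Map3k7), over 14 days, and dissociated tumours were captured on the 10x Genomics platform. Each group is 1 library, and the number of mice in it is not stated. No test between treatments was therefore possible and no p-value is given. All intervals in square brackets are 95% intervals that cover counting error only: exact Poisson for levels, Clopper-Pearson for shares and exact conditional for ratios of counts.

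Gpnmb-positive macrophages are known from adipose tissue, atherosclerotic plaques, injured brain and tumours, where the genes switched on with Gpnmb include lipid carriers, cathepsins and the lipid receptor Trem2; such cells are often called lipid-associated macrophages. Macrophages load their lysosomes when they take up dying cells and lipid. The lysosomal genes and Gpnmb itself are known targets of the MiT/TFE transcription factors Mitf, Tfeb, Tfec and Tfe3, which bind E-box and M-box sequences.

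Promoter sequences around the lysosomal genes are printed here because 2 of the genes, Ctsd and Lamp1, hold the E-box CACGTG close to their start, while Gpnmb does not within the same window. The sequences are from RefSeq (GRCm38.p6), 5′ to 3′ on the strand of the gene, with positions counted from the start of transcription. In Ctsd, which encodes the lysosomal protease cathepsin D (minus strand, chr7:142387908-142387937, positions -110 to -81), and in Lamp1, which encodes a main membrane protein of the lysosome (plus strand, chr8:13159081-13159160, positions -80 to -1), capitals mark CACGTG.
Ctsd: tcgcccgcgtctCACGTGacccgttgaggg
Lamp1: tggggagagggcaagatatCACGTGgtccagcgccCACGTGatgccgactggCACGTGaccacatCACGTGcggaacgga
The Ctsd stretch lies in exon 1 of 1 GENCODE M21 transcript and upstream of another. Lamp1 holds 4 copies, at positions -61, -45, -28 and -15. In Gpnmb (plus strand, chr6:49036418-49036537, positions -100 to 20) capitals mark the only match of the AP-1 sequence TGANTCA.
Gpnmb: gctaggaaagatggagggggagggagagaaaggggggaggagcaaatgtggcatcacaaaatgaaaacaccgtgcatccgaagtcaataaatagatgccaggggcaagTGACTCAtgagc
Both strands were searched over 250 bases before and 50 after each start. The Gpnmb window held neither CACGTG nor TCANNTGA, a loose M-box pattern in which N is any base. Ctsd held CACGTG at -245 and -98 and TCANNTGA at -99, which overlaps the latter, and at -67. Ctsl held CACGTG at -236, and Ctsk and Trem2 held TCANNTGA at -136 and -162. The TCANNTGA matches read TCACGTGA (-99) and TCAGCTGA (-67) in Ctsd, TCAGATGA in Ctsk and TCAAATGA in Trem2. Of 32851 promoters in the table, 7.15% held CACGTG, 8.39% TCANNTGA and 7.81% TGANTCA. Promoters were found for 26 of 33 genes of the lysosome list, and 9 of their 29 promoters (31.0%) held CACGTG and 8 (27.6%) TCANNTGA. For subunits of the V-ATPase, the proton pump that acidifies lysosomes, 4 of 13 promoters (30.8%) held CACGTG and 5 (38.5%) TCANNTGA. By comparison CACGTG was in 3 of 17 promoters (17.6%) of the lipid-associated list and in 2 of 19 (10.5%) of the NF-kB target list. A match describes letters in a window and says nothing of binding in these cells. Fabp5, Fabp4 and Lpl had no entry.

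The kept cells had a median of 3594.5 UMIs in vehicle and 3049.5 in takinib, but the members were deeper in takinib: their median was 4172 UMIs (1741 to 16492) and 1658 genes in vehicle, against 7294 UMIs (1358 to 28939) and 2351 genes in takinib, from 270764 and 4537371 UMIs in all. Mitochondrial genes took a median of 7.29% of member UMIs in vehicle and 2.81% in takinib. Between the libraries 400 kept barcodes were shared, none between members, and 11 members shared a barcode with a kept cell of the other library. The vehicle library held cells of both sexes, and so of more than 1 mouse. Of its kept cells 1120 had Xist without Y-linked UMIs and 3204 Y-linked UMIs without Xist. Among its members 3 had Xist without Y-linked UMIs, 18 Y-linked UMIs without Xist, 7 both and 21 neither. In takinib 437 of 529 members had Xist and 0 had Y-linked UMIs. Of the vehicle members with either kind, 25% (7 of 28) [10.7, 44.9] held both, against 3.53% (23 of 652) [2.25, 5.25] of the other C1q macrophages. Treatment coincided with library, depth and sex, which cannot be told apart.

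The members were a small corner of the C1q macrophages of the vehicle library and a main group of those of the takinib library. C1q macrophages are here the cells that met every criterion except those on Gpnmb and class II, 1827 in vehicle and 1404 in takinib. Members made up 2.68% [1.99, 3.53] of them in vehicle and 37.7% [35.1, 40.3] in takinib, 14.0 times the share (log2 3.81 [3.32, 4.34]). Over all kept cells the shares were 0.496% [0.367, 0.656] and 1.97% [1.81, 2.15], a ratio of 3.98. Class II-high C1q macrophages went the other way, from 46.1% (843 cells) to 12.6% (177 cells), and class II-low cells with 0 Gpnmb UMIs from 47.7% (872 cells) to 38.9% (546 cells). Cells with exactly 1 Gpnmb UMI were 3.45% (63 cells) and 10.8% (152 cells).

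**Figure D1:**
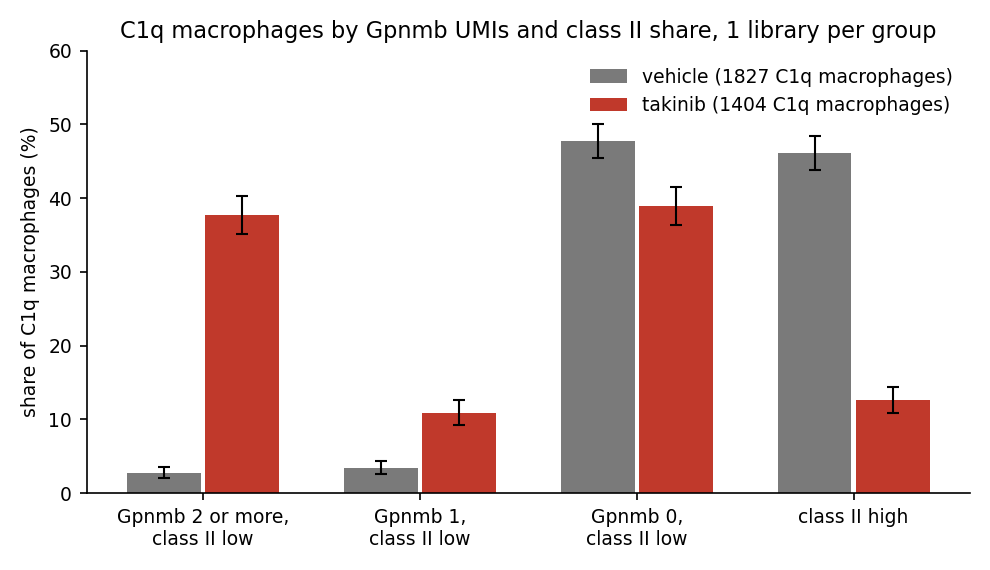
Bars give the share of C1q macrophages (%) in 4 groups defined by Gpnmb UMIs and class II, for the vehicle library (grey, 1827 cells) and the takinib library (red, 1404 cells), with 95% Clopper-Pearson intervals. The group with 2 or more Gpnmb UMIs and low class II was 2.68% in vehicle and 37.7% in takinib, and the class II-high group 46.1% and 12.6%.

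Gpnmb was also more frequent within each class II range. In class II-low C1q macrophages, 2 or more Gpnmb UMIs were found in 4.98% of 984 vehicle cells and 43.1% of 1227 takinib cells. In class II-high ones the shares were 0.949% (8 of 843) and 12.4% (22 of 177). C1q macrophages were deeper in takinib (median 6180.5 UMIs against 3668), so each cell was also thinned to 1000 UMIs. The class II-low shares then were 0.915% (9 cells) [0.419, 1.73] in vehicle and 22.4% (275 cells) [20.1, 24.9] in takinib. B cells, which should lack Gpnmb, gave 0% (0 of 213) [0, 1.72] in vehicle and 0.817% (10 of 1224) in takinib at the same depth, and 0.469% and 2.94% unthinned at median depths of 1807 and 2471.5 UMIs.

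The amount of Gpnmb per member differed too. Vehicle members had a median of 3 Gpnmb UMIs (2 to 14), and takinib members a median of 10 (2 to 503). In vehicle 23 members (46.9%) sat on the threshold of 2 UMIs and 2 members (4.08%) had 10 or more, whereas in takinib 64 (12.1%) and 277 (52.4%) did. The C1q sum had a median of 27 UMIs (10 to 186) and 54 (10 to 566), and class II took a median of 0.107% and 0.0265% of the UMIs. Just inside the Gpnmb threshold, Fabp5 stood at 1126 CPM in vehicle and 1216 CPM in takinib. Just outside, at 1 Gpnmb UMI, it stood at 491 and 980 CPM. Selenop was at 519 CPM inside and 523 CPM outside in vehicle, and at 1812 and 1068 CPM in takinib, and Ctsd at 4271 and 4245 CPM in vehicle and 2395 and 2043 CPM in takinib. CPM are the counts summed over the cells of a set in 1 library, scaled to the same total of UMIs for every set.

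The named markers were present, with unequal standing. Of the markers outside the rule, Fabp5, a fatty acid-binding protein (chr3:10012548-10016607, plus strand, GRCm38), was at 1455 CPM [1315, 1606] in vehicle members and 3655 CPM in takinib members. It had a UMI in 44 of 49 and 504 of 529 members. In the same libraries it was at 307 and 910 CPM in class II-high C1q macrophages and at 378 and 592 CPM in those with 0 Gpnmb UMIs, below the members in all 4 cases. Selenop, the selenium transport protein of resident macrophages (chr15:3268547-3280508, plus strand), stood at 613 CPM [523, 714] and 2402 CPM in members, against 276 and 810 CPM in class II-high cells and 382 and 833 CPM in Gpnmb-zero cells. Apoe, the lipid carrier of macrophages (chr7:19696109-19699188, minus strand), did not mark the members off: it was at 19231 and 15898 CPM in them, 20448 and 18346 CPM in class II-high cells and 20531 and 13183 CPM in Gpnmb-zero cells. C1qc, which the rule used, was at 2194 and 2166 CPM, and Gpnmb at 639 [547, 742] and 3264 CPM. Of 6 general macrophage genes none was past 2-fold between the libraries (median log2 0.09), and Csf1r, the receptor of the growth factor CSF1, was at 499 and 338 CPM.

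**Figure D2:**
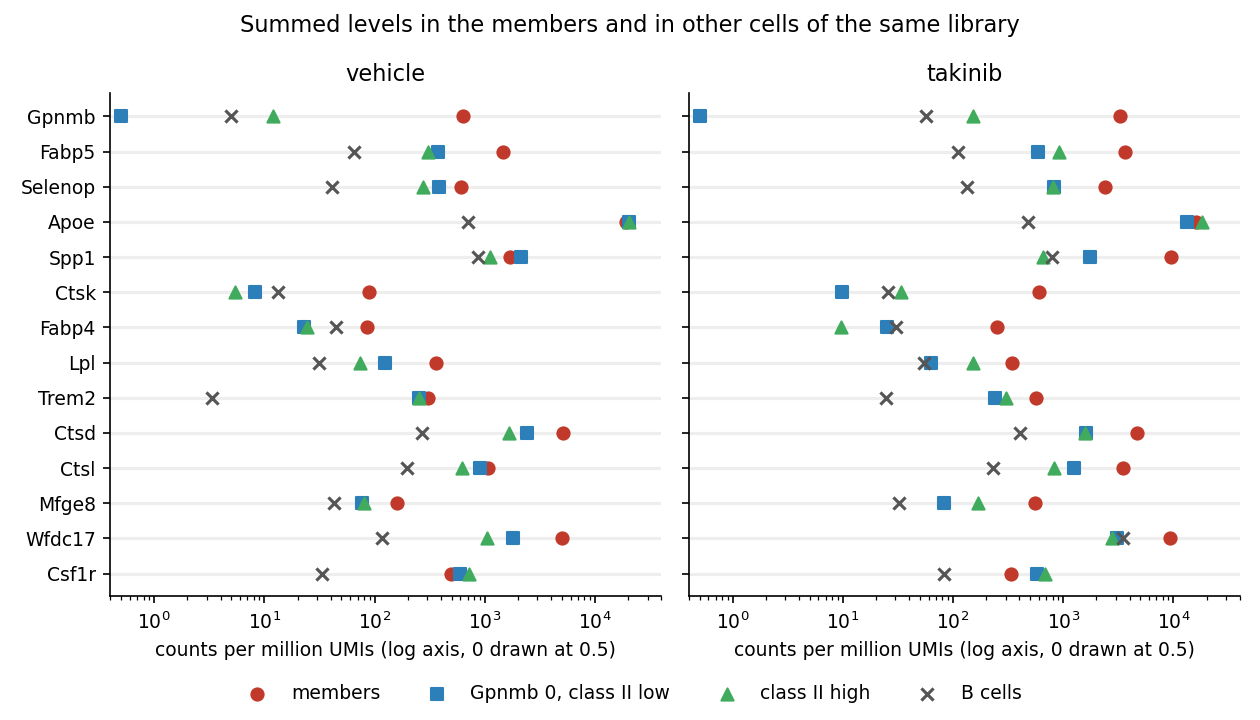
Points give the summed level (CPM, log axis, 0 drawn at 0.5) of 14 genes in members (red circles), Gpnmb-zero class II-low C1q macrophages (blue squares), class II-high C1q macrophages (green triangles) and B cells (grey crosses), with vehicle on the left and takinib on the right. Fabp5 is higher in members than in the other macrophages of both libraries, whereas Spp1 is far higher in the members of takinib (9602 against 1740 and 658 CPM).

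Other cell types were checked through their marker lists. In members of both libraries Cd79a, Pax5, Cd3e, Cd8a, Gzma, Ncr1, Xcr1, Siglech, Epcam, Sftpc, Ear1, Krt79 and Ear10 had 0 counts, some of them by the rule. Summed over each list, in vehicle and takinib members, dendritic markers were at no more than 29.5 CPM in either, T and NK markers at 18.5 and 4.85, B and plasma markers at 33.2 and 21.2, endothelial and perivascular markers at 18.5 and 15.4 and epithelial markers at 207 and 133 CPM. Lists that differed more were neutrophil markers (355 and 12381 CPM), monocyte markers (1854 and 6068), alveolar macrophage markers (1525 and 5810), erythroid markers (0 and 629) and fibroblast markers (1544 and 139). The neutrophil list was at 16120 CPM in takinib Gpnmb-zero macrophages and at 8156 CPM in class II-high ones, so it was high throughout the takinib macrophages; Cxcr2, Retnlg, Mmp8, Ly6g, Camp, Ngp and Stfa2l1 were at 0 in vehicle members. S100a8 and S100a9 made up 1% or more of the UMIs in 0 of 49 vehicle and 103 of 529 takinib members (19.5%).

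Against class II-high C1q macrophages of their own library, members of both libraries had higher levels of single lipid and lysosomal genes, Fabp5 and Ctsd among them. A gene was counted when its log2 ratio, with 10 CPM added to each level, was past 1 in size in both libraries and it had at least 50 summed counts in a set of each. Of 6239 genes, 32 were higher (0.513%) and 44 lower (0.705%); these counts include genes whose direction the rule fixes, 1 of the higher (Gpnmb) and 4 of the lower (the class II genes). In vehicle, 4 of 17 lipid-associated genes were at least 2-fold higher and 1 lower (median log2 0.74) and 1 of 32 lysosomal genes was higher (median 0.33), where 2.48% of all genes were higher and 3.85% lower. In takinib 9 of 18 lipid-associated genes were higher and 0 lower (median 1.00) and 5 of 33 lysosomal genes higher and 1 lower (median 0.42), where 1.5% of all were higher and 1.15% lower. With Fabp5 (log2 ratio 2.21 in vehicle and 1.99 in takinib) stood Ctsd (1.64 and 1.55), at 5163 and 4670 CPM in members against 1645 and 1589 CPM. Wfdc17, a small secreted WAP-domain protein, was at 4979 and 9378 CPM against 1053 and 2750 CPM (2.23 and 1.77), and takinib B cells held 3495 CPM of it. Fabp4, the fatty acid-binding protein of adipocytes and macrophages, was at 84.9 CPM in vehicle members against 24.5 CPM (log2 ratio 1.46), and had a log2 ratio of 3.74 in takinib, with a UMI in 9 of 49 and 205 of 529 members. Its vehicle ratio was under 1 in 2 of 22 alternatives, down to 0.25 in cells of male origin.

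Ccn3, a matricellular protein, was at 957 and 49.8 CPM in members against 202 and 2.87 CPM (2.19 and 2.22). Serpinb6a, an intracellular protease inhibitor (192 and 226 CPM, against 34.2 and 55.5), Rhoc, a small GTPase of cell shape (211 and 192, against 50.4 and 68.9), and Adam8, a membrane metalloproteinase (122 and 291, against 39.9 and 115), showed the same order in both. Cxcl1, a neutrophil chemokine, rests on 9 vehicle and 42 takinib members, with 42.2% of the takinib counts in 1 cell. Its takinib log2 ratio of 1.44 was under 1 in 3 of 22 alternatives and 0.03 after the deeper library was thinned, and its vehicle ratio of 1.89 was 0 in cells of female origin. Mgp, a calcification inhibitor, had 94.8% of its vehicle counts and 67.1% of its takinib counts in 1 cell each, and without the highest cell of each set its vehicle ratio to Gpnmb-zero cells was -0.56.

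Lower in members of both libraries were genes of class II presentation that the rule did not use. Ciita, the master regulator of class II transcription, had 1 count in vehicle members and 5 in takinib members, 3.69 and 1.10 CPM, against 105 and 75.6 CPM in class II-high cells. H2-DMa and H2-DMb1, which load peptide on class II, had log2 ratios of -1.83 and -2.30 in vehicle and -1.98 and -2.46 in takinib. These go with the class II limit of the rule. Adamdec1, a secreted metalloproteinase of mononuclear phagocytes, was at 7.39 and 4.19 CPM against 155 and 105 CPM. Cx3cr1, the fractalkine receptor (-2.10 and -2.81), Spint1, an inhibitor of membrane serine proteases (-2.23 and -2.34), Mgl2, a C-type lectin (-2.09 and -2.44), Ccl17, a chemokine (-3.33 and -1.72), Cd72, an inhibitory receptor (-2.55 and -1.64), and Plbd1, a phospholipase (-1.62 and -2.13), were the other genes at the low end. The takinib ratio of Ccl17 was smaller than 2-fold in 2 alternatives.

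The comparison that holds class II low on both sides sets members against C1q macrophages without a Gpnmb UMI. It had 17 genes higher (0.264%) and 16 lower (0.249%) of 6432 in both libraries, the higher ones including Gpnmb, which the rule fixes, and the lower ones no gene of the rule. Fabp5 (1.92 and 2.61), Ctsd (1.09 and 1.54) and Wfdc17 (4979 and 9378 CPM, against 1820 and 3063) were again among the higher ones, as was Fabp4 (1.54 and 2.90). Lpl, the enzyme that frees fatty acids from lipoproteins, was at 358 and 341 CPM in members against 125 and 63.7 CPM, although 14 of 49 and 203 of 529 members carried it. Mmp12, macrophage elastase, was at 853 and 1186 CPM against 365 and 378 CPM, and did not differ in this way from class II-high cells (1016 and 1193 CPM). In vehicle members of male origin alone, Fabp4 (-0.12), Lpl (-1.02) and Mmp12 (-1.48) were below the Gpnmb-zero cells of that origin.

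Gdf15, a stress-induced cytokine, was at 233 and 40.8 CPM against 40.7 and 11.2 CPM. Ccn3 (1.69 and 1.98), Gstm1, a glutathione transferase (1.16 and 1.97), Rnase2a, a ribonuclease (1.80 and 1.21), and Mgp complete the 10 highest. Lower were Cx3cr1 (-1.44 and -1.84), Tgfbi, an extracellular matrix protein of monocytes and macrophages (-1.24 and -1.14), at 299 and 434 CPM against 719 and 967 CPM, and Spint1 (-1.23 and -1.63). Col14a1, a fibril-associated collagen (-1.93 and -1.73), Tnc, a matrix glycoprotein (-1.44 and -2.00), Tm4sf1, a tetraspan membrane protein (0 counts in vehicle members against 80.6 CPM, and -1.43 in takinib), Serpine2, a serine protease inhibitor (-1.23 and -1.58), Cxcl14, a chemokine (-1.29 and -1.22), Plbd1 (-1.17 and -1.26) and Nt5e, the ectonucleotidase CD73 (-1.14 and -1.29), were also at the low end, with at most 11 counts in vehicle members each. Several of these 20 genes lost the 2-fold size in some of the 22 alternatives. In vehicle this was so for Gstm1 in 5, Mmp12, Serpine2 and Nt5e in 4 each, Cxcl14 and Plbd1 in 3, Fabp4 and Cx3cr1 in 2, and Lpl, Rnase2a, Wfdc17 (to 0.41 in cells of female origin), Col14a1, Tm4sf1 and Spint1 in 1, not counting changes of sign. In takinib it was so for Rnase2a in 4, Tm4sf1 in 3, Gdf15 (to 0.40 after thinning cells to 1000 UMIs), Serpine2 and Tgfbi in 2, and Cxcl14 and Mgp in 1.

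Some genes were clearest in takinib. Spp1, the secreted phosphoprotein osteopontin (chr5:104435118-104441050, plus strand), was at 9602 CPM in takinib members against 1740 CPM in Gpnmb-zero cells (log2 2.46), and at 1677 CPM in vehicle members against 2111 CPM (-0.33). It was at 872 and 790 CPM in the B cells of the libraries, a background that the takinib members exceed. Ctsk, cathepsin K, a collagen-degrading protease best known from osteoclasts (chr3:95499256-95509362, plus strand), was at 604 CPM in 180 takinib members against 9.80 CPM in Gpnmb-zero cells. In vehicle it lay in the same direction, at 88.6 CPM in members against 8.26 CPM in Gpnmb-zero and 5.41 CPM in class II-high cells, from 24 counts in 5 members, 62.5% of them in 1 cell. At 1000 UMIs a Ctsk UMI was found in 17.8% of takinib members [14.6, 21.3], 1.47% of Gpnmb-zero cells, 2.82% of class II-high cells and 2.29% of B cells, and in vehicle in 6.12% (3 of 49) [1.28, 16.9], 0.229%, 0.237% and 0.469%. Further takinib leaders over Gpnmb-zero cells were Ahnak2, a large scaffold protein (139 against 9.22 CPM), Slamf7, a receptor of immune cells (95.2 against 4.90 CPM), Il7r, the interleukin-7 receptor (153 against 20.7 CPM), Mfge8, a bridging protein of apoptotic cell uptake (558 against 83.6 CPM), and Cd36, a scavenger receptor for fatty acids (92.8 against 8.93 CPM).

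Other genes were lower in takinib members than in Gpnmb-zero cells. Ccr2, the chemokine receptor of monocytes, was at 22.7 CPM in members against 220 CPM in Gpnmb-zero cells. Timp1, a metalloproteinase inhibitor (38.8 against 575 CPM), Vcam1, an adhesion molecule (31.5 against 294 CPM), Slc40a1, the iron exporter ferroportin (8.60 against 112 CPM), and Cd5l, a secreted protein of tissue macrophages (1.76 against 80.1 CPM), were lower by more than 2 on the log2 scale. In vehicle these 4 did not have lower levels in members by the same measure, with log2 ratios of -0.19, 0.82, 0.81 and 0.04. The monocyte list as a whole had 2 of 9 genes at least 2-fold lower and 0 higher in takinib, where 1.18% of all genes were lower and 0.943% higher. In vehicle 1 of 8 was lower, at a log2 ratio of -1.64, and 0 higher, where 3.13% of all genes were lower and 1.05% higher. In takinib the monocyte list summed to 6068 CPM in members and 5476 CPM in Gpnmb-zero cells. Erythroid markers were also at 3968 CPM in takinib Gpnmb-zero cells and 629 CPM in members; their part in these differences was not tested.

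By role, the lipid-associated list was the list of macrophage state with the largest share of genes at least 2-fold higher than in the Gpnmb-zero cells in takinib. There 11 of its 19 genes were higher and 1 lower (median log2 1.27), where 0.943% of all genes were higher and 1.18% lower and the median of all was -0.10. In vehicle 4 of 17 were higher and 0 lower (median 0.48), where 1.05% of all were higher and 3.13% lower (median -0.06). Trem2, the lipid receptor that names such cells, was at 568 against 243 CPM in takinib and at 303 [241, 376] against 255 CPM in vehicle. Lgals3, galectin-3, was at 3261 against 1225 CPM and 1614 against 842 CPM.

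The lysosome list, which shares Cd63, Ctsb, Ctsd, Ctsl and Lipa with the lipid-associated one, was shifted by less. In takinib 30 of 33 genes were above the Gpnmb-zero cells, where 34.8% of all genes tested were, 7 of them 2-fold or more, and 1 gene was 2-fold lower (median 0.47). In vehicle 27 of 32 were above, where 44.0% of all were, and 1 was past 2-fold (median 0.38). Summed over the list, members held 32715 CPM in vehicle and 40702 CPM in takinib, against 23240 and 20922 CPM in Gpnmb-zero cells and 23186 and 23475 CPM in class II-high cells. Ctsl, cathepsin L, was at 1071 and 3512 CPM in members against 911 and 1242 CPM, and Ctsb, cathepsin B, at 2360 and 4188 against 1468 and 1726 CPM. Lamp1 was at 1477 and 1927 CPM against 1107 and 1181 CPM, and Psap, the precursor of the saposins that help degrade sphingolipids, at 6773 and 6704 against 3880 and 2574 CPM. Laptm5, a lysosomal membrane protein of blood cells, stood level, at 1108 and 805 CPM in members and 1129 and 798 CPM in Gpnmb-zero cells.

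Of 17 V-ATPase subunit genes, 16 were above the Gpnmb-zero cells in takinib (median 0.51) and 14 in vehicle (median 0.30), beside the same shares of all genes. Past the 2-fold size in both was 1 of them, Atp6v0d2, the myeloid d subunit, at 259 and 473 CPM in members against 70.2 and 62.8 CPM. Transcripts of the MiT/TFE factors themselves were at similar low levels: Mitf at 62.8 and 64.8 CPM in members against 54.9 and 50.7 CPM, Tfec at 88.6 and 54.0 against 93.5 and 62.5 CPM, and Tfeb at 25.9 and 21.4 against 22.1 and 19.6 CPM. Of the 10 genes of MiT/TFE factors and Rag signalling none was past 2-fold against Gpnmb-zero cells in takinib (median 0.23).

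Other lists had negative medians against Gpnmb-zero cells in takinib, where 0.943% of all genes were at least 2-fold higher and 1.18% lower. All 21 measured genes of glycolysis and hypoxia (median -0.39) and all 17 of proliferation (median -0.69) lay below 0, where 65.2% of all genes tested did, with 1 past 2-fold in each. NF-kB targets (2 lower of 23, median -0.40), inflammatory macrophage genes (1 lower of 14, median -0.45) and immediate-early and AP-1 genes (0 of 16, median -0.39) also had negative medians. Resident and alternative macrophage genes had 1 higher, Selenop, and 2 lower of 17 (median -0.31). In vehicle the medians of these 6 lists lay between -0.11 and 0.24. Against class II-high cells the resident list had positive medians in both libraries, with 7 of 14 genes at least 2-fold higher and 1 lower in vehicle (median 0.74) and 4 of 17 higher and 0 lower in takinib (median 0.58), beside the shares of all genes given above for that comparison. F13a1, the A subunit of coagulation factor XIII, was the highest of them in vehicle, at 292 against 21.9 CPM.

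The pattern was graded with Gpnmb. Class II-low C1q macrophages thinned to 1000 UMIs were sorted by the Gpnmb UMIs left. This gave 808, 144 and 275 takinib cells and 933, 42 and 9 vehicle cells with 0, 1 and 2 or more. These groups contain the members and are a description. The group with 2 or more consists of members. Of members thinned alike, 394 of 529 in takinib and 24 of 49 in vehicle kept a Gpnmb UMI, so the group with 0 also holds members. In takinib Fabp5 was at 825, 1771 and 4218 CPM, Ctsk at 22.3, 181 and 829 CPM, Spp1 at 1834, 3250 and 9953 CPM, and the lysosome list summed to 24656, 34424 and 47320 CPM. In vehicle Fabp5 was at 406, 1238 and 2444 CPM and the lysosome list at 24294, 34000 and 42556 CPM, the same order as in takinib. Spp1 was at 2079, 1595 [1236, 2026] and 1000 CPM [457, 1898] in vehicle, the last from 9 cells, and the latter intervals overlap. Without thinning, vehicle Spp1 was at 1522 CPM in cells with 1 Gpnmb UMI and 2411 CPM in those with 2. No order of Spp1 with Gpnmb can therefore be given for vehicle. Csf1r went down in takinib (631, 451 and 276 CPM) and showed no order in vehicle (704, 452 and 778 CPM). Vcam1 was at 386, 76.4 and 21.8 CPM in takinib.

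**Figure D3:**
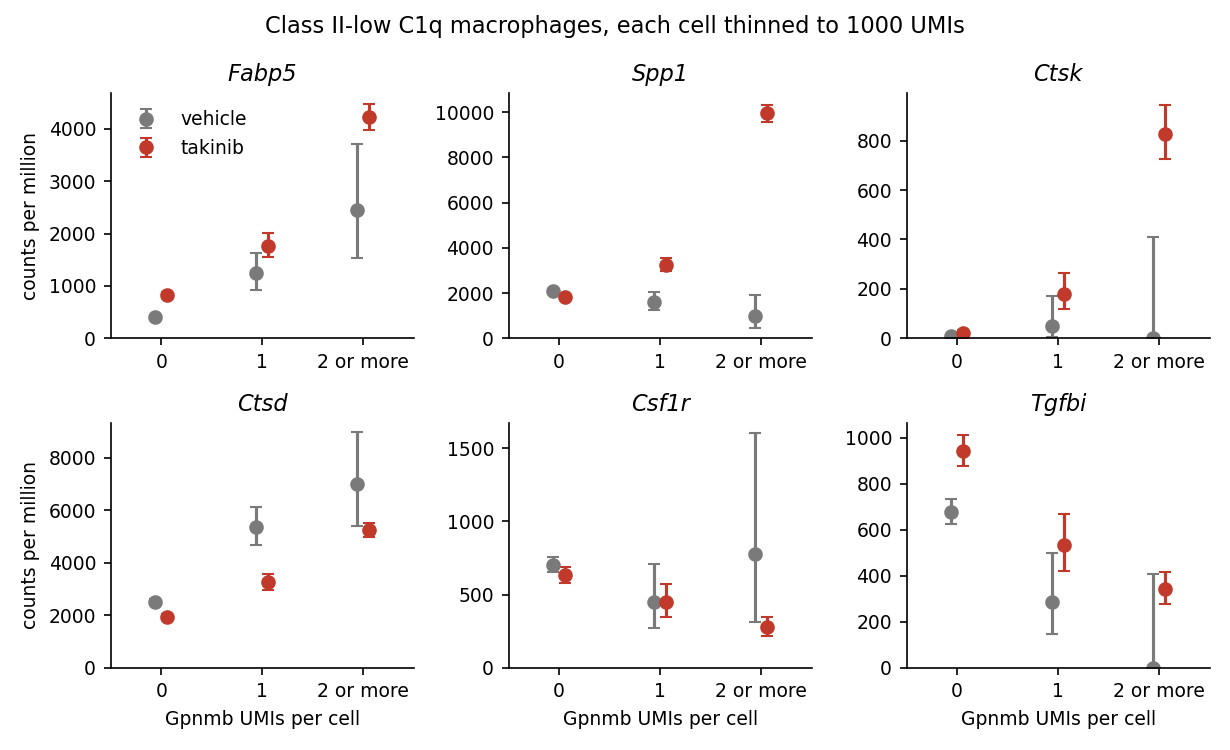
Points give CPM for 6 genes in class II-low C1q macrophages by Gpnmb UMIs per cell after thinning each cell to 1000 UMIs, for vehicle (grey) and takinib (red), with 95% Poisson intervals. Fabp5 and Ctsd are higher with more Gpnmb in both libraries, Spp1 and Ctsk in takinib, and Tgfbi is lower (944, 535 and 342 CPM in takinib).

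Members varied widely among themselves. Per 10000 UMIs of a cell, Fabp5 had a median of 8.43 (0 to 122) in vehicle and 19.6 (0 to 207) in takinib, and Spp1 5.89 (0 to 94.7) and 16.6 (0 to 1363). Selenop had 3.23 and 17.2, and Ctsd 46.0 and 37.0. Ctsk, Lpl and Mmp12 had a median of 0 in both libraries. Thinned to 1000 UMIs, 94 takinib members kept a Ctsk UMI and 435 did not, a split chosen after the values were seen. The cells with Ctsk had more Gpnmb (4872 against 2407 CPM), Spp1 (13234 against 5471), Lpl (585 against 207), Mfge8 (894 against 303) and Mmp12 (1628 against 798), and less C1qa (1681 against 2814). Selenop (3191 and 2995 CPM) and Trem2 (617 and 600) were close. Acp5, the tartrate-resistant acid phosphatase of osteoclasts, was at 362 and 389 CPM, and Ocstamp, a fusion protein of osteoclasts, had 0 counts in both. Atp6v0d2, a V-ATPase subunit also known from osteoclasts, was at 702 CPM [543, 893] with Ctsk and 405 CPM [347, 469] without. Nfatc1, the osteoclast transcription factor, had 6 and 10 counts in the 94 and 435 cells, with overlapping intervals per UMI, and Dcstamp, another fusion protein, 4 counts and 1.

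Over the 529 takinib members, thinned alike, log counts of Fabp5 and Gpnmb had a Pearson correlation of 0.45, Ctsd and Gpnmb 0.41, Mmp12 and Lpl 0.44, and Apoe and Selenop 0.48. Mmp12 was negatively related to Selenop (-0.36) and to Apoe (-0.35), and Lpl to Apoe (-0.31). These cells share 1 library and their counts are sparse, so the values only describe how the genes spread over the members.

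Between the libraries, takinib members had higher levels of several lipid-associated genes and of inflammatory and neutrophil genes, and lower levels of a group that includes Alox15 and Tmem176a. Of 7309 genes with at least 50 summed counts, 397 were at least 2-fold higher in takinib members (5.43%) and 166 at least 2-fold lower (2.27%), with a median log2 ratio of 0.06; the rule used 1 of the former, Gpnmb, and 4 of the latter, the class II genes. All of these rest on 49 vehicle cells. The minimum of 50 counts could be met in either set, and the members held 4537371 UMIs in takinib and 270764 in vehicle. Genes high in takinib therefore entered these counts, and those of the lists below, at a lower CPM than genes high in vehicle. Spp1 was 5.73-fold higher [5.22, 6.30], Selenop 3.92-fold [3.36, 4.60], Ctsl 3.28-fold [2.92, 3.70], Fabp5 2.51-fold [2.27, 2.78] and Mfge8 3.52-fold [2.60, 4.87]. Vehicle and takinib members also differed in Gpnmb per cell, as given above. Members with exactly 2 Gpnmb UMIs numbered 23 in vehicle and 64 in takinib. In them Spp1 was at 2411 and 3041 CPM, Fabp5 at 1126 and 1216 CPM and Selenop at 519 and 1812 CPM. Ctsd (0.904 [0.857, 0.955]) and Lpl (0.952 [0.775, 1.18]) had ratios near 1. By the levels given above, Fabp5 and Selenop were also higher in takinib than in vehicle in class II-high and in Gpnmb-zero cells. Spp1 was lower in takinib in the Gpnmb-zero ones. Of 18 lipid-associated genes 6 were higher and 0 lower (median 0.40), against 2 higher and 1 lower of 33 lysosomal genes (median 0.09) and none of 17 V-ATPase genes (median 0.22).

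Among the 12 genes with the highest ratios, most were also high in other cells of the takinib library. Ifitm1, an interferon-induced membrane protein, had 2 counts in vehicle members and 507 CPM in takinib members, a ratio of 68.6 [19.0, 567]. Cstdc4, a cystatin of neutrophils, was at 0 and 276 CPM, at least 24.9-fold higher against a floor of 3 counts over the vehicle members. Il1b, interleukin-1 beta, was at 111 [74.8, 158] and 891 CPM, 8.04-fold higher [5.63, 11.9]. Ifitm1, Cstdc4 and Il1b were at 4796, 3271 and 5691 CPM in takinib neutrophils and at 1477, 921 and 2029 CPM in takinib B cells. Levels in takinib B cells equalled or exceeded those in members for 9 of the 12 genes, and levels in takinib neutrophils for 8 of 12; over all 397 the numbers were 150 and 153. The part of neutrophil RNA in these values was not tested, and with a neutrophil profile subtracted Pglyrp1, a bactericidal protein of granules (2 counts, then 108 CPM, a ratio of 14.6 [4.03, 121]), had a log2 ratio of -0.43. Asprv1, an aspartic protease (at least 6.96-fold), Upp1, uridine phosphorylase (at least 5.95-fold), Nos2, inducible nitric oxide synthase (at least 4.83-fold), Il1f9, an interleukin-1 family cytokine (at least 4.63-fold), and Ccl5, a T cell chemokine (1 count, then 94.3 CPM, a ratio of 25.5 [4.56, 1011]), were the others of this kind; Ccl5 was above the neutrophils (45.7 CPM) but not the B cells (106 CPM).

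The remaining genes of the 12 were above both kinds of cells. Npy, neuropeptide Y, was at 0 in vehicle members and 81.8 CPM in 80 takinib members (at least 7.38-fold), against 18.6 CPM in takinib B cells and 2.02 CPM in Gpnmb-zero cells. Mt3, a metallothionein, was at 0 and 67.2 CPM (at least 6.07-fold) in 16 takinib members, with 43.9% of the counts in 1 cell. Ctsk was at 88.6 and 604 CPM, 6.81-fold higher [4.57, 10.6].

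**Figure D4:**
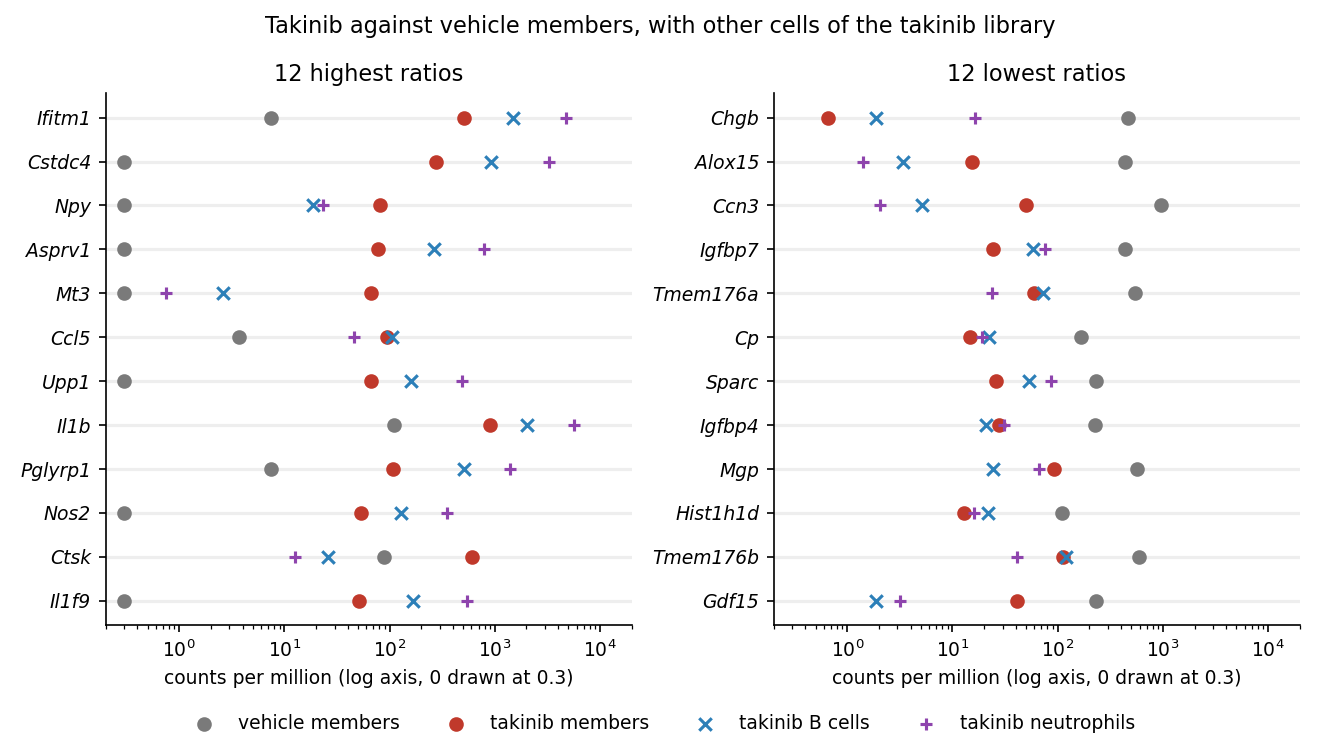
Points give CPM (log axis, 0 drawn at 0.3) of the 12 genes with the highest (left) and the 12 with the lowest (right) takinib to vehicle ratio, in vehicle members (grey), takinib members (red), takinib B cells (blue crosses) and takinib neutrophils (purple plus signs). On the left, Npy, Mt3 and Ctsk are higher in takinib members than in both other cell types.

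Of the genes with the lowest ratios, some were spread over many vehicle members and some over few. Alox15, a lipoxygenase that oxidises polyunsaturated fatty acids, was at 439 CPM in 20 of 49 vehicle members and at 15.4 CPM in 16 of 529 takinib members, 28.5-fold lower [21.0, 38.8]. Ccn3, at 957 CPM in 34 members and 49.8 CPM in 22, was 19.2-fold lower [16.0, 23.1]. The lower levels of Alox15 and Ccn3 were not particular to the members. Ccn3 was at 202 and 2.87 CPM in class II-high cells of vehicle and takinib, and in 49.0% and 1.65% of Gpnmb-zero cells. Alox15 was in 21.4% and 4.76% of Gpnmb-zero cells. Tmem176a and Tmem176b, paired membrane proteins of antigen-presenting cells, were at 539 and 598 CPM in vehicle and 59.7 and 113 CPM in takinib members, 9.03-fold and 5.30-fold lower. Cp, the copper-binding ferroxidase ceruloplasmin (166 and 14.8 CPM), Gdf15 (233 and 40.8 CPM) and Hist1h1d, a linker histone (111 and 12.8 CPM), were lower as well.

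For 4 of the 12, at least 50% of the vehicle counts came from 1 cell: Chgb, a secretory granule protein (86.6% of 127 counts), Mgp (94.8%), Igfbp7 (61.0%) and Igfbp4 (52.5%), both proteins that bind insulin-like growth factors. Sparc, a matrix glycoprotein, had 46.8% in 1 cell. Igfbp7, Sparc and Mgp moved with the fibroblast markers, at 1544 CPM in vehicle and 139 CPM in takinib members; their part was not tested. By sex-linked transcripts the vehicle members of male origin (18 cells) had 850 CPM of Alox15 and 713 CPM of Tmem176a, and those of female origin (3 cells) 97.8 CPM [11.8, 353] and 147 CPM [30.3, 429]. Takinib members, with no Y-linked UMI, were below both for Alox15 and Tmem176a, and for both genes their level lay within the interval of the 3 cells. For Igfbp7 the female-origin cells had 733 CPM and the male-origin cells 0.

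Inflammatory and signalling lists differed in direction, beside 5.43% of all genes higher and 2.27% lower. Of 13 inflammatory macrophage genes 8 were higher and 1, Osm, the cytokine oncostatin M (244 and 67.2 CPM), lower in takinib members (median 1.31), and of 22 NF-kB targets 8 were higher and 1, Nfkbiz (233 and 110 CPM), lower (median 0.60). Cxcl2, a neutrophil chemokine, was at 702 and 3308 CPM, 4.71-fold higher [4.09, 5.47], and Nfkbia, the NF-kB inhibitor, at 547 and 604 CPM. Cxcl2 was at 23949 CPM in takinib neutrophils and at 8315 CPM in takinib B cells, and without members in which S100a8 and S100a9 reached 1% the list medians were 0.84 and 0.33. Il6, interleukin-6, fell short of 50 counts in both sets and is in neither count. It was at 92.3 CPM (25 counts in 9 cells) and 10.8 CPM (49 counts in 21 cells), 8.55-fold lower [5.06, 14.1]. Immediate-early and AP-1 genes had 0 higher and 3 lower of 16 (median -0.32), among them the stress factor Atf3 at 321 and 121 CPM, while Fos was at 657 and 638 CPM. Map3k7, the transcript of the target kinase, had 5 counts in vehicle members and was at 18.5 [6.00, 43.1] and 26.0 CPM, a difference not detectable at this depth.

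Metabolic and phagocytic lists held differences in single genes, and their counts stand beside 5.43% of all genes higher and 2.27% lower. Complement genes outside the rule had 0 higher and 2 lower of 9 (median -0.27): C4b, the fourth complement component, at 934 and 243 CPM, and C3, the central component, at 421 and 120 CPM, with 53.5% of its vehicle counts in 1 cell. Iron and heme genes had 0 higher and 1 lower of 12 (median 0.40), the lower one being Trf, transferrin, at 2615 and 712 CPM, while Fth1, ferritin heavy chain, was at 24508 and 38623 CPM. Among efferocytosis genes, 3 higher and 1 lower of 13 (median 0.07), Mfge8 and Axl, a receptor for apoptotic cells, parted: Axl was at 270 and 69.4 CPM, 3.88-fold lower [2.97, 5.02]. Resident and alternative genes had 4 higher and 2 lower of 17 (median 0.12), with Chil3, a chitinase-like protein, at 1104 and 5248 CPM and Mrc1, the mannose receptor, at 506 and 820 CPM. Arginine metabolism had 3 higher and 1 lower of 8 (median 0.10), and Arg1, arginase, was at 2770 and 2071 CPM.

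The remaining lists are given beside 5.43% of all genes higher and 2.27% lower. Cholesterol and lipid handling had 1 higher and 0 lower of 21 (median 0.13), MiT/TFE factors and Rag signalling 2 and 0 of 10 (median 0.00), osteoclast-type genes 2 and 1 of 10 (median 0.34) and metalloproteinases and inhibitors 4 and 1 of 11 (median 0.55). Suppressive ligands and cytokines had 2 and 0 of 12 (median -0.17), growth factor receptors 0 and 1 of 19 (median -0.28), MHC class I presentation 0 and 0 of 10 (median 0.39), class II genes outside the rule 0 and 1 of 2 (median -0.74), interferon response 3 and 0 of 9 (median 0.36), glycolysis and hypoxia 0 and 1 of 21 (median -0.23), NRF2 targets 2 and 0 of 12 (median 0.29), proliferation 0 and 1 of 12 (median -0.39) and the TAK1 complex 0 and 0 of 2 (median 0.24). Of the markers of other cells, 15 of 16 neutrophil genes (median 3.33) and 4 of 4 erythroid genes (2.72) were higher and 4 of 4 fibroblast genes lower (-3.09). Of 9 monocyte genes 3 were higher and 1 lower (0.02), and of 4 alveolar genes 2 were higher (1.06); Chil3 is on both of these lists and Atp6v0d2 is an alveolar and a V-ATPase gene. With genes at 0 set to the floor of 3 counts, the neutrophil, erythroid and alveolar medians were 2.80, 1.64 and 0.53.

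**Figure D5:**
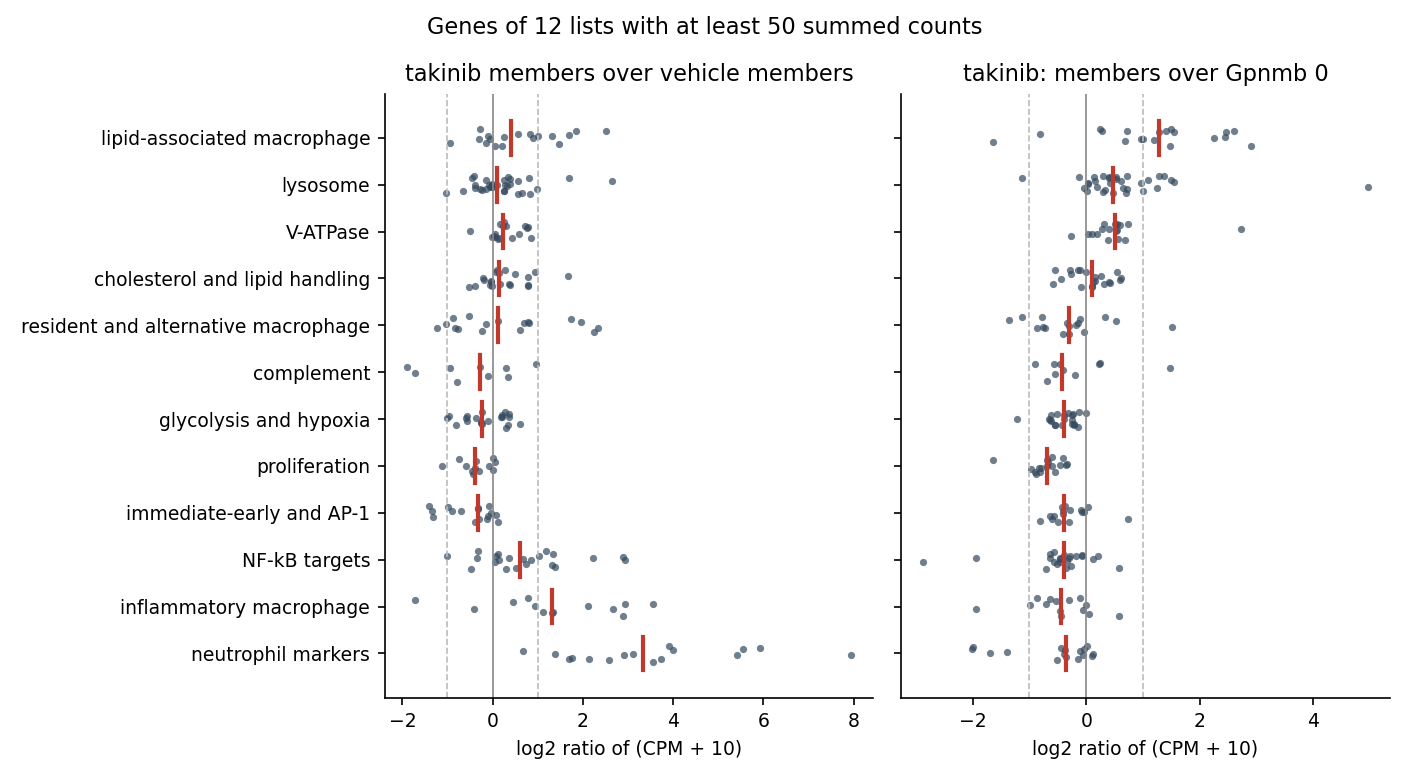
Each point is 1 gene of 12 lists with at least 50 summed counts, and red lines are list medians; the x axes give the log2 ratio of CPM plus 10, left for takinib over vehicle members and right for takinib members over takinib Gpnmb-zero macrophages, with dashed lines at 2-fold. The lipid-associated list has its median at 0.40 on the left and 1.27 on the right, while the neutrophil list is at 3.33 on the left and below 0 on the right.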

How the data were processed

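The authors deposited raw UMI counts per gene and barcode for each library, made with Cell Ranger 4 (vehicle) and Cell Ranger 6.1.1 (takinib) per the file headers; the submitters' processing notes name Cell Ranger 2.1.1 and mm10. The vehicle matrix held 704261 barcodes and the takinib matrix 34158, none under 500 UMIs, so only the latter had been filtered before deposit; the same filters were then applied to both. The members and gene lists were chosen with earlier results of these data known. The gene lists used were those whose values the results give.

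Counts were summed per set and library, scaled to CPM, and compared as log2 ratios with 10 CPM added, which understates differences of low genes; with 1 library per group, ratios past 1 with at least 50 counts were counted and no test was run. The 12 highest and lowest such genes between libraries, and the 10 highest and lowest by the smaller of the 2 libraries' ratios against other macrophages, were named, leaving out genes of the rule, other-cell markers, mitochondrial, ribosomal, haemoglobin, immunoglobulin, sex-linked and unnamed genes; leaders of 1 library and other genes on the lists were chosen after their values were seen. B cells had at least 3 UMIs of Cd79a and Cd79b together and under 10 of C1q and neutrophils 2% or more of their UMIs in S100a8 and S100a9, 0 Gpnmb and at most 1 C1q UMI; they numbered 213 and 149 in vehicle and 1224 and 10956 in takinib.

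Members were not removed as doublets: Scrublet marked 1 of 49 in vehicle by its automatic threshold; in takinib that threshold marked 0.00373% of cells and had not worked, so the highest 1621 scores were used, 37 of them members. Alternatives moved the limits on UMIs, genes, mitochondrial share, Gpnmb, C1q and class II, the pseudocount and the count minimum. They also moved the depth, the doublets, the neutrophil content and the origin by sex-linked genes. The limits on Ear2 and Car4, on Saa3 and on Cd79a, Cd3e and Epcam were not moved. The summing and ratio steps were tested on simulated data. Python 3.11.15, numpy 2.4.6, scipy 1.17.1, pandas 2.3.3 and scanpy 1.11.5 were used.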

Additional observations from a re-analysis of the deposited data

Results flagged for a closer look

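Differences of opposite direction between the libraries stood out for 2 genes, and neither difference was tested. Alox15 was above Gpnmb-zero macrophages in vehicle members (log2 1.15, 439 against 193 CPM) and below them in takinib members (-1.26, 15.4 against 50.7 CPM). Il6 was above class II-high macrophages in vehicle members (1.87, 92.3 against 18.0 CPM) and below them in takinib members (-1.57, 10.8 against 51.7 CPM); against Gpnmb-zero macrophages it was at 1.04 in vehicle and -1.95 in takinib. Il6 rests on 25 counts in 9 vehicle members and 49 counts in 21 takinib members.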

How the results depend on the processing

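No paired analysis was possible because each group is 1 library. The higher share of members in takinib kept its direction in all alternatives tried. Its log2 ratio over kept cells (1.99) moved to 1.16 with Gpnmb of at least 1 UMI, 3.58 with at least 4, 2.93 without cells of 1% or more S100a8 and S100a9, and 3.39 against vehicle cells of female origin; over C1q macrophages (3.81) it moved to 2.98 and 5.40 with the first and second, and was 3.66 after thinning takinib to 59.3% of its UMIs. Counts of genes moved more. Of genes higher and lower in takinib members (397 and 166) there were 245 higher with Gpnmb of at least 1, 1095 and 266 with at least 4, 3521 and 834 against female-origin vehicle members (3 cells), 1131 and 460 against male-origin ones (18 cells), 201 and 54 after thinning cells to 1000 UMIs, 846 and 341 with 1 CPM added, 169 and 71 with at least 200 counts, 409 lower with no minimum, and 737 higher without each gene's highest cell. Genes higher and lower than in class II-high cells of both libraries (32 and 44) were 8 and 14 with female-origin and 13 higher with male-origin vehicle cells, 15 and 13 after thinning, and 14 and 17 with at least 200 counts. Against Gpnmb-zero cells (17 and 16) they were 8 and 5 with Gpnmb of at least 1, 29 and 51 with at least 4, 11 higher with C1q of at least 20, 5 and 5 with female-origin and 6 and 27 with male-origin vehicle cells, 7 and 6 after thinning, 9 and 8 with at least 200 counts, and 38 lower with 1 CPM added. Several of these settings also left fewer cells or genes. The cause of these shifts was not tested.

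Reversed were, with Gpnmb of at least 4, Chgb (0.073), Igfbp7 (0.63), Sparc (0.32) and Mgp (0.13) between libraries, and Mgp over class II-high (-0.90) and Gpnmb-zero cells (-1.16) in vehicle. With female-origin vehicle cells these were Chgb (0.10), Mgp (-1.52 and -1.27) and class II genes outside the rule (1.05). With male-origin ones they were Chgb (0.092), Igfbp7 (1.79) and Mgp (2.33), and, in vehicle, Mgp (-0.44 and -2.66), Fabp4 (-0.12), Lpl (-1.02) and Mmp12 (-1.48). Others were Chgb without cells holding both Xist and Y-linked UMIs (0.092), Mgp over Gpnmb-zero cells without its highest cell (-0.56), these last settings being chosen after seeing the data, and Pglyrp1 with a neutrophil profile subtracted (-0.43). Smaller list medians were not counted, yet some changed sign with vehicle cells of 1 sex. With female-origin cells proliferation went from -0.39 to 1.24, glycolysis and hypoxia from -0.23 to 0.99 and growth factor receptors from -0.28 to 0.87. Suppressive ligands and cytokines went from -0.17 to 0.84 and cholesterol and lipid handling from 0.13 to -0.54. Complement moved to 0.082 and NRF2 targets to -0.087. With male-origin cells the TAK1 complex went from 0.24 to -0.48. The 49 vehicle members limit every comparison between treatments: 3 counts there are 11.1 CPM.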
